A study of Homo sapiens with 33 samples.

Results

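The 8 genes described here encode S100 calcium-binding proteins: S100A4, S100A6, S100A8, S100A9, S100A10, S100A11, S100A13 and S100P. They were chosen by name from the platform annotation of the array, with earlier results of these data known: S100A4 was included for its large change after loss of ALK, and S100A9 and S100P for their difference between cell lines. They account for 8 of the 11963 genes and 10 of the 22215 non-control probe sets of the array. S100A8 and S100A13 each had 2 probe sets and the others had 1. Because the values of the hairpin experiment entered the choice, that experiment is given as a description with standard errors and no test. Tests were made only in the inhibitor experiment.

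Messenger RNA was measured on 33 Affymetrix HG-U133A arrays, which fell into 11 groups of 3. The cells were Su-DHL1 and TS, the latter subcloned from Sup-M2. Both are established human lines of ALCL (anaplastic large cell lymphoma), a malignancy of T cells, and both express an active form of the tyrosine kinase ALK (anaplastic lymphoma kinase). In 7 groups the cells carried the tTRKRAB repressor with DsRed and a GFP-marked short hairpin RNA that doxycycline (1 microg/ml) switches on, and they had been sorted for both colours and against leaky GFP. Hairpin A5 targets ALK, and it was studied with doxycycline (induced) and without it (uninduced) in TS at 84 h, in TS at 72 h and in Su-DHL1 at 72 h. The mutated hairpin A5M was studied in TS at 84 h with doxycycline only. The inhibitor experiment had 4 groups of TS cells, harvested after 6 h with one of the pyrrolocarbazole-derived compounds A1, A2 or A3 at 300 nM, or with no compound (U). The sample descriptions name A1 as an ALK inhibitor and U as untreated, whereas the design text names A1 as the mock compound and the U arm as diluent. A1 is used here as the design text has it, and results are set against U as well. No uninduced A5M array and no A5M array of Su-DHL1 was analysed here. An effect of doxycycline itself was therefore not measured alone in either line. In TS cells, A5M against uninduced A5 changes doxycycline and hairpin together. The labels do not say that replicates came from separate cultures, so errors and p-values cover only how far these arrays lie apart, which could be technical.

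S100 proteins are small proteins with a pair of calcium-binding EF-hand loops, and most work as dimers. On binding calcium they expose a surface that docks onto other proteins, among them annexins, nonmuscle myosin and cytoskeletal scaffolds, and some are released from cells and act on the receptors AGER (RAGE) and TLR4. S100A8 and S100A9 form calprotectin, which is abundant in neutrophils and monocytes. S100A4 binds nonmuscle myosin heavy chain and is known from motile and metastatic cells, S100A10 binds annexin A2, and S100P is known from placenta and carcinomas.

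The array values were checked first. MAS5 signals had been scaled by the authors so that the trimmed mean lay between 200.063 and 200.078 on every array, and replicates correlated at 0.969 to 0.985 over probe sets on the log2 scale. The targeted gene behaved as labelled by the probe set 208212_s_at: ALK was 248 ± 44.2 in induced against 2039 ± 97.2 in uninduced TS cells at 84 h, 330.2 ± 52.4 against 1823 ± 19.1 at 72 h, and 637.2 ± 12.3 against 2966 ± 219.3 in Su-DHL1 (signal, SD, n = 3 each). ALK stood at 1686 ± 46.5 with A5M, where its arrays (1652 to 1739) lay below all uninduced A5 arrays of the same time (1927.3 to 2100.3). The other ALK probe set, 208211_s_at, gave 384.2 to 431.9 with A5M, 469.9 to 526.7 in uninduced A5 and 130.7 to 151.3 in induced A5 at 84 h. ALK was thus somewhat lower in A5M than in uninduced A5. Between 10 and 12 of 15 ALCL and T-cell markers, ALK among them, reached the 40th percentile of their array in each group. Their mean summed signal was 9334 against 13874 in induced and uninduced TS cells at 84 h, 9008 against 14622.5 at 72 h and 13899.5 against 18583 in Su-DHL1, and 15805, 15751, 7138 and 7083 with U, A1, A2 and A3. The part of these shifts in the results below was not tested. The 3′ over 5′ signal ratio of ACTB, a gauge of RNA integrity and labelling, moved with the groups: it was 1.27 against 1.54 in induced and uninduced TS cells at 84 h, 1.32 against 1.59 at 72 h, 1.36 against 1.39 in Su-DHL1, 1.52 with A5M, and 1.18, 1.33, 1.05 and 1.06 with U, A1, A2 and A3. Its part in the results below was not tested, but values of the 8 genes fitted with that ratio as a covariate are given where they change a call.

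Sequence context shows how the genes lie and what stands before their starts. In RefSeq's GRCh38.p14 annotation, 5 of the 8 genes lie in an uninterrupted run of 14 protein-coding S100 genes on chromosome 1, in the order S100A9, S100A12, S100A8, S100A7A, S100A7, S100A6, S100A5, S100A4, S100A3, S100A2, S100A16, S100A14, S100A13 and S100A1. S100A10 and S100A11 are neighbours of each other on the same chromosome, 47 protein-coding genes before that run, and S100P lies on chromosome 4. All 8 genes matched the RefSeq promoter table, with 12 start sites. The 250 bases before the start are shown for S100A4, S100A9 and S100P, whose changes set the pattern described below. They are also shown for S100A6, which among the 8 genes changed most like S100A4. Capitals mark TATAAA, the core of a TATA box. S100A4 is at chr1:153545807-153546056, minus strand, S100A6 at chr1:153535992-153536241, minus strand, S100A9 at chr1:153357604-153357853, plus strand, and S100P at chr4:6693628-6693877, plus strand. Each sequence is written 5′ to 3′ on the gene's strand.
S100A4: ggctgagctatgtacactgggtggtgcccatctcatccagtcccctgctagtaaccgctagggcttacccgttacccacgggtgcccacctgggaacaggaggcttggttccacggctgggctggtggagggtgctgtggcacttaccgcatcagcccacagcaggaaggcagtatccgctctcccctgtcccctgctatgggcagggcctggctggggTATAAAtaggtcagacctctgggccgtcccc
S100A6: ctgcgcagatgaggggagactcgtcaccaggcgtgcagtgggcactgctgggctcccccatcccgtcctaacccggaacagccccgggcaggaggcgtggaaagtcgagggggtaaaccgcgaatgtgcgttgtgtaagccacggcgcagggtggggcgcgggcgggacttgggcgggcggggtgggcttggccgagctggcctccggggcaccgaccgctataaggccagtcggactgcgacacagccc
S100A9: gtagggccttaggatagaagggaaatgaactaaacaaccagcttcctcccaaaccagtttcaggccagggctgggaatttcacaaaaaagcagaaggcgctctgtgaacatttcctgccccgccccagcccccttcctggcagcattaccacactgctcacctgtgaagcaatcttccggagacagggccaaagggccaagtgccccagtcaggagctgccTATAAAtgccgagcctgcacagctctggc
S100P: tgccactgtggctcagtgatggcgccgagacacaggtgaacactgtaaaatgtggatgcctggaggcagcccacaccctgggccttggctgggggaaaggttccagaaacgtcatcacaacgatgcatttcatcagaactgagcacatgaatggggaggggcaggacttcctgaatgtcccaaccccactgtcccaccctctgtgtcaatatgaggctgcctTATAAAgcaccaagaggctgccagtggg

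TATAAA began 31 bases before the S100A4 start, 29 before that of S100A9 and 28 before that of S100P. It also began 29 bases before 1 of the 3 S100A8 starts and 1 of the 3 S100A13 starts, and was not found in the windows of S100A6, S100A10 or S100A11. On either strand, 10.7% of all 35116 promoter windows of this length held it. A C/EBP-type motif, TTNNGNAA, occurred before S100A6, S100A8, S100A9, S100A11, S100A13 and S100P and in 33.2% of all windows, and the E-box CANNTG before 6 members and in 61.8%. The RUNX motif TGTGGT occurred before S100A9 and S100A11 and in 11% of windows. No member window held the STAT motif TTCNNNGAA (6.57% of windows), the AP-1 motif TGANTCA (6.57%), the CREB motif TGACGTCA (1.65%) or the ETS motif CCGGAANT (5.14%). A member is named if any of its windows held the motif, and S100A8 and S100A13 had 3 windows each. The percentages are of single windows, so the units differ. These 8 motifs were searched on both strands after the expression values had been seen. A match is a match of letters only, and its absence concerns this window only.

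**Figure D1:**
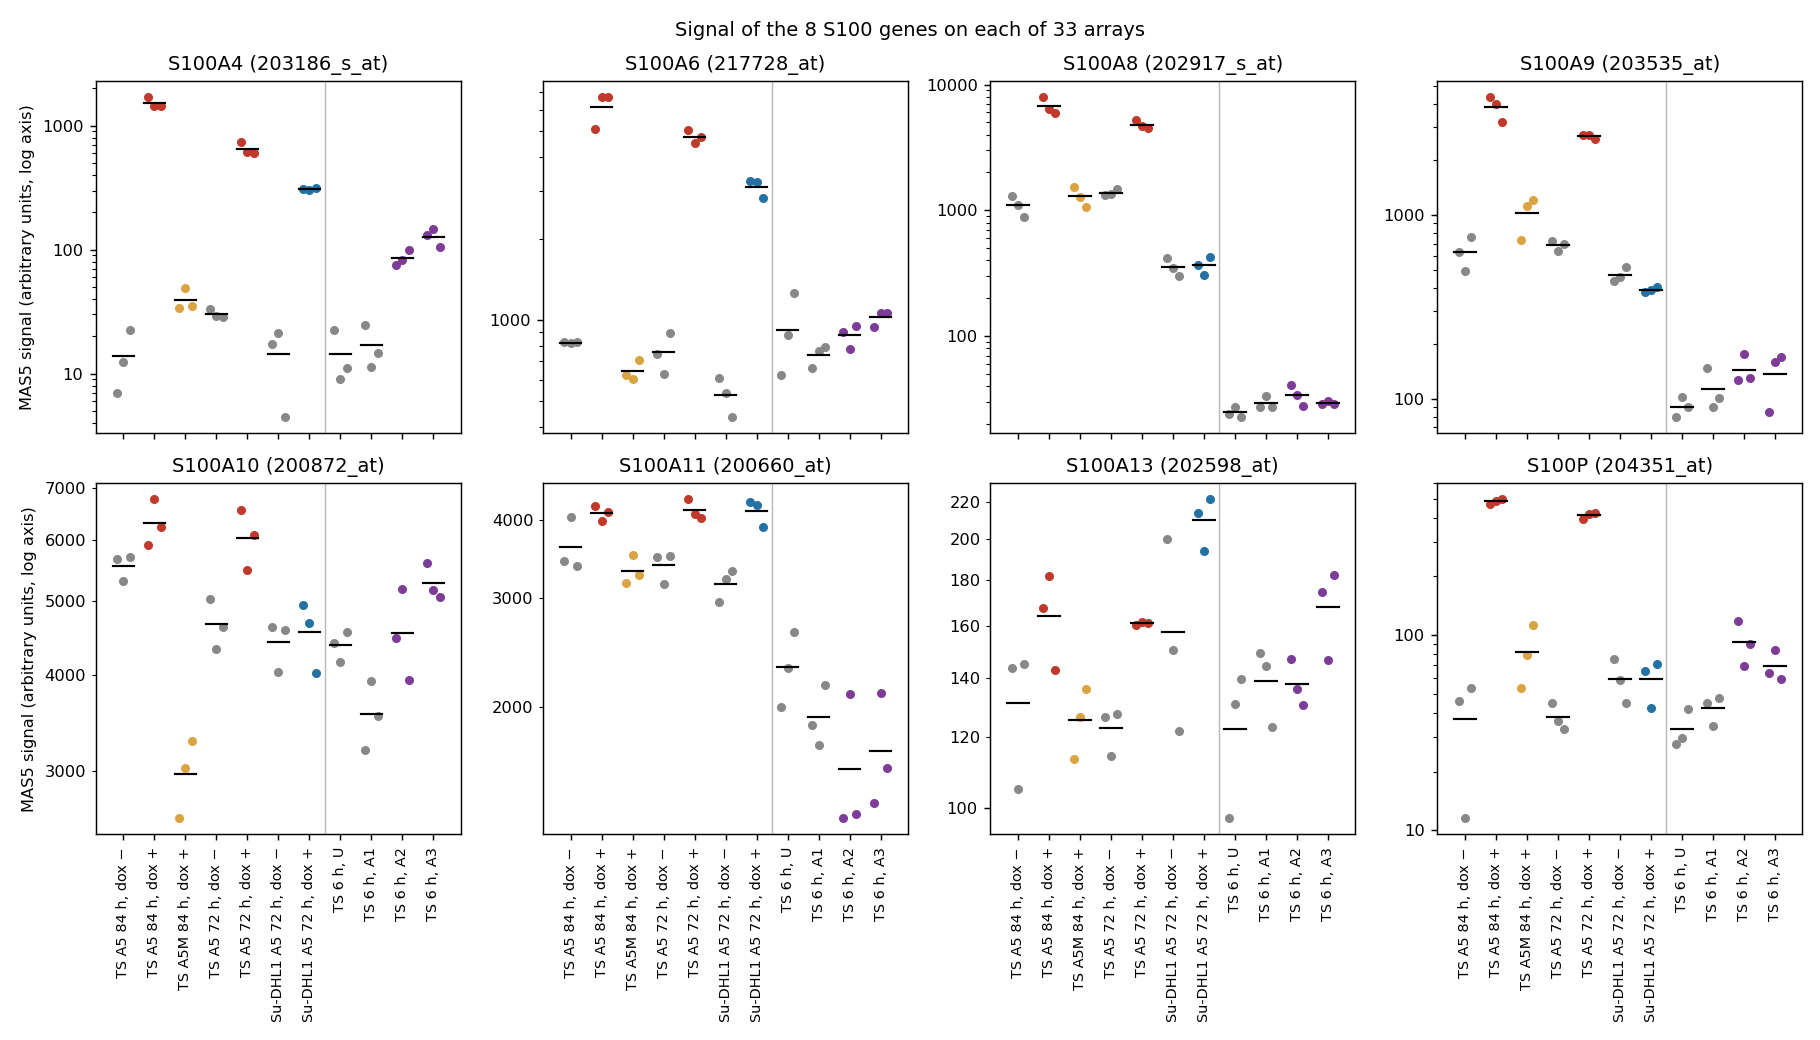
MAS5 signal (arbitrary units, log axis) of the 8 genes by their main probe set on each of 33 arrays; points are arrays, 3 per group, and black bars are group means. To the right of the grey line are the 6 h groups. S100A4 lay between 1448.5 and 1703.3 in induced TS cells at 84 h and between 4.5 and 49.4 on all TS and Su-DHL1 arrays without active A5 or inhibitor.

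On the scale of log2(signal + 11), S100A4 was the gene with the largest increase of all 9101 genes in the hairpin experiment, in each of the 3 settings. Its signals (203186_s_at) were 1703.3, 1452.7 and 1448.5 in induced TS cells at 84 h and 7.0, 12.3 and 22.4 in uninduced cells. At 72 h they were 735.6, 612.6 and 606.6 against 33.3, 28.9 and 28.8. In Su-DHL1 they were 308.5, 301.3 and 316.7 against 17.5, 21.1 and 4.5. Every induced array thus lay far above every uninduced array, and the uninduced arrays were all below the 40th percentile of their array, where a probe set is barely above background. The log2 fold change on that scale was 6.00 ± 0.22 (SE of the fit) at 84 h, 3.999 ± 0.22 at 72 h and 3.72 ± 0.22 in Su-DHL1. The added 11 damps the ratio of a gene whose control level is this low: with 1 added in its place the same values were 6.82, 4.38 and 4.56, and with 50 added they were 4.64, 3.12 and 2.49. Induced TS cells held more S100A4 at 84 h than at 72 h on every array, and induced Su-DHL1 cells less than either. Since both uninduced 72 h groups were below the 40th percentile, the order of the lines in their 72 h response rests on the added constant: Su-DHL1 was lower with 11 or 50 added and higher with 1.

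A5M cells held a little S100A4. Their signals were 33.8, 49.4 and 35.4, and all 3 lay above the 3 uninduced A5 arrays of the same time, by 1.05 ± 0.22 on the log2 scale. Of the A5M arrays 2 were below the 40th percentile, so this difference lies among signals near background. The induced A5 arrays stood 4.94 ± 0.22 above A5M.

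S100A6, which binds the ubiquitin-ligase partner CACYBP and annexins, changed by similar amounts in all 3 settings. Its signals were 5103.4, 6696.8 and 6688.2 in induced against 824.1, 821.4 and 823.4 in uninduced TS cells at 84 h. At 72 h they were 5031.5, 4524.6 and 4766.4 against 743.7, 629.9 and 896.4. In Su-DHL1 they were 3272.9, 3239.0 and 2839.4 against 606.5, 536.1 and 437.2. No induced array came near an uninduced one, unlike S100A4 the gene was well expressed before induction, and its log2 fold changes of 2.88, 2.65 and 2.55 (± 0.12 each) lay close together. A5M arrays (625.4, 600.4 and 706.1) lay below all 3 uninduced A5 arrays, by 0.35 ± 0.12, so that induced A5 stood 3.23 ± 0.12 above A5M.

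S100P, the member outside chromosome 1, differed between the lines. In TS cells its signals (204351_at) were 468.9, 486.4 and 498.2 induced against 46.1, 11.5 and 53.5 uninduced at 84 h. At 72 h they were 393.9, 418.7 and 423.9 against 45.1, 36.1 and 33. In Su-DHL1 they were 65.3, 42.4 and 71.2 induced against 75.6, 59.0 and 44.8 uninduced. The groups were far apart in TS cells and overlapped in Su-DHL1. The log2 fold changes were 3.51 ± 0.28, 3.12 ± 0.28 and -0.005 ± 0.28, and the response in Su-DHL1 was lower than that in TS at 72 h by 3.12 ± 0.40 (-3.12 as Su-DHL1 minus TS), the second lowest such difference of all genes. Uninduced levels of the 2 lines overlapped. A5M arrays, at 53.5, 79.2 and 112.3, met the uninduced A5 arrays only at 53.5, which counts as overlap. On the log2 scale A5M stood 1.04 ± 0.28 above uninduced A5 and 2.47 ± 0.28 below induced A5. The uninduced array at 11.5 was below the 40th percentile. With the ACTB ratio as covariate the TS values were 2.87 and 2.49, and without the uninduced array at 11.5 the 84 h value was 3.03. With 1 added to the signal in place of 11 they were 3.93 and 3.41, and with 50 added 2.65 and 2.39.

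The calprotectin pair also differed between the lines. S100A8 (202917_s_at) stood at 7959.8, 6433.6 and 5985.4 in induced against 1297.7, 1110.6 and 892.8 in uninduced TS cells at 84 h. At 72 h it stood at 5190.3, 4714.0 and 4473.6 against 1313.6, 1338.4 and 1481.5. In Su-DHL1 it stood at 366.6, 303.5 and 428.7 against 414.0, 346.0 and 298.4. TS groups did not overlap and Su-DHL1 groups did, with log2 fold changes of 2.62, 1.79 and 0.05 (± 0.15 each). The weaker probe set 214370_at gave 1.66 and 1.43 in TS cells and -0.64 (± 0.25 each) in Su-DHL1, where the 3 induced arrays (4.1, 7.7 and 3.9) were below the 3 uninduced ones (18.5, 11.8 and 12.9), all under the 40th percentile of their arrays.

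S100A9 (203535_at) followed the same course. Its TS signals were 4378.4, 4013.1 and 3192.3 against 628.5, 494.2 and 754.7 at 84 h, and 2716.4, 2709.5 and 2598.0 against 723.1, 639.4 and 692.3 at 72 h. In Su-DHL1 they were 382.4, 391.0 and 406.0 against 439.2, 459.8 and 520.1. Induction was thus accompanied by higher S100A9 on every TS array and by slightly lower S100A9 on every Su-DHL1 array. The log2 fold changes were 2.61, 1.95 and -0.26 (± 0.15 each), and the 72 h response in Su-DHL1 minus that in TS was -2.21 ± 0.21. A5M arrays (732.4, 1126.3 and 1200.4) overlapped the uninduced A5 arrays at 84 h through the array at 732.4. On the log2 scale A5M stood 0.68 ± 0.15 above uninduced A5 and 1.93 ± 0.15 below induced A5.

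Uninduced Su-DHL1 cells held less of 4 members than uninduced TS cells of the same time, with no overlap. S100A8 was lower by 1.94 ± 0.15, S100A9 by 0.53 ± 0.15 and S100A6 by 0.51 ± 0.12 on the log2 scale. The fourth, S100A4, was below the 40th percentile in both groups. The background share of genes lower without overlap in this comparison was 18.6%, and the lines differ in more than their name, so the line and the subcloning, transduction and sorting of each cannot be told apart.

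Myeloid genes were measured beside S100A8 and S100A9, which are myeloid markers themselves. Of 12 myeloid markers on the array, 5 to 7 reached the 40th percentile in each group, CD163, CSF1R, CSF3R, ITGAM and VCAN in all 11 groups. Their summed signal was lower after induction: it ranged from 2633.2 to 2687.5 against 3671.3 to 4096.8 in TS cells at 84 h, from 3095.3 to 3150.5 against 3841.4 to 4119.3 at 72 h, and from 2338 to 2421.4 against 3129.5 to 3239.1 in Su-DHL1. A few bright probe sets carry such a sum. Gene by gene, of 7 myeloid markers that passed the filter 1 was higher and 2 were lower without overlap at 84 h (median log2 fold change 0.06), 1 was higher and 3 were lower at 72 h (median 0.03), and 2 were higher and 3 lower in Su-DHL1 (median -0.09). Of all genes 24.8% were higher and 20.9% lower at 84 h, 28.5% and 21.3% at 72 h, and 23.6% and 16.2% in Su-DHL1. The medians over all genes were 0.06, 0.07 and 0.08. In the 6 h experiment the sum ranged from 2485.2 to 2885.7 with A2 and A3 and from 3631.1 to 4154.9 with A1 and U. Of 4 stromal markers 2 or 3 reached that percentile, and LUM was at or below a signal of 1 in 8 of 11 groups. Their sum ranged from 356.6 to 398.2 against 194.1 to 251.8 at 84 h, from 317.9 to 392.8 against 181.6 to 331.4 at 72 h and from 276 to 353.5 against 217.8 to 278.8 in Su-DHL1, and its part in the S100A4 and S100A6 values was not tested. Of 7 epithelial markers 1 or 2 (KRT8 and KRT18) and of 3 B-cell markers 0 to 2 reached the percentile. In bulk RNA such as this, a change in the number of expressing cells and a change in RNA per cell cannot be told apart.

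S100A10, S100A11 and S100A13 changed little with ALK hairpin induction. S100A10, the annexin A2 partner, was among the strongest signals of the set: 5903.7, 6782.4 and 6235.5 induced against 5657.0, 5304.1 and 5701.2 uninduced at 84 h, a log2 fold change of 0.18 ± 0.10. Its fold changes were 0.37 ± 0.10 at 72 h and 0.04 ± 0.10 in Su-DHL1, where the groups overlapped. A5M arrays, at 2601.7, 3029.2 and 3283.7, were the lowest of all 11 groups by mean. The difference of induced A5 from A5M, 1.09 ± 0.10, therefore came with a difference of A5M from uninduced A5 of -0.91 ± 0.10.

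S100A11, an annexin A1 partner, stood between 3901.4 and 4332.3 on the 9 induced A5 arrays and between 2953.9 and 4047.0 on the 9 uninduced ones. Its log2 fold changes were 0.19, 0.29 and 0.39 (± 0.08 each) in TS at 84 h, TS at 72 h and Su-DHL1, and the groups overlapped at 84 h. S100A13, a partner in the nonclassical release of FGF1, gave 0.31, 0.36 and 0.42 (± 0.15 each) by 202598_at, with no overlap only at 72 h (160.5, 161.5 and 161.1 against 126.5, 114.4 and 127.4). Its other probe set, 213481_at, gave -0.42, 0.28 and -0.63 (± 0.29 each) with overlap in each setting, so the direction for S100A13 rests on the probe set used.

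**Figure D2:**
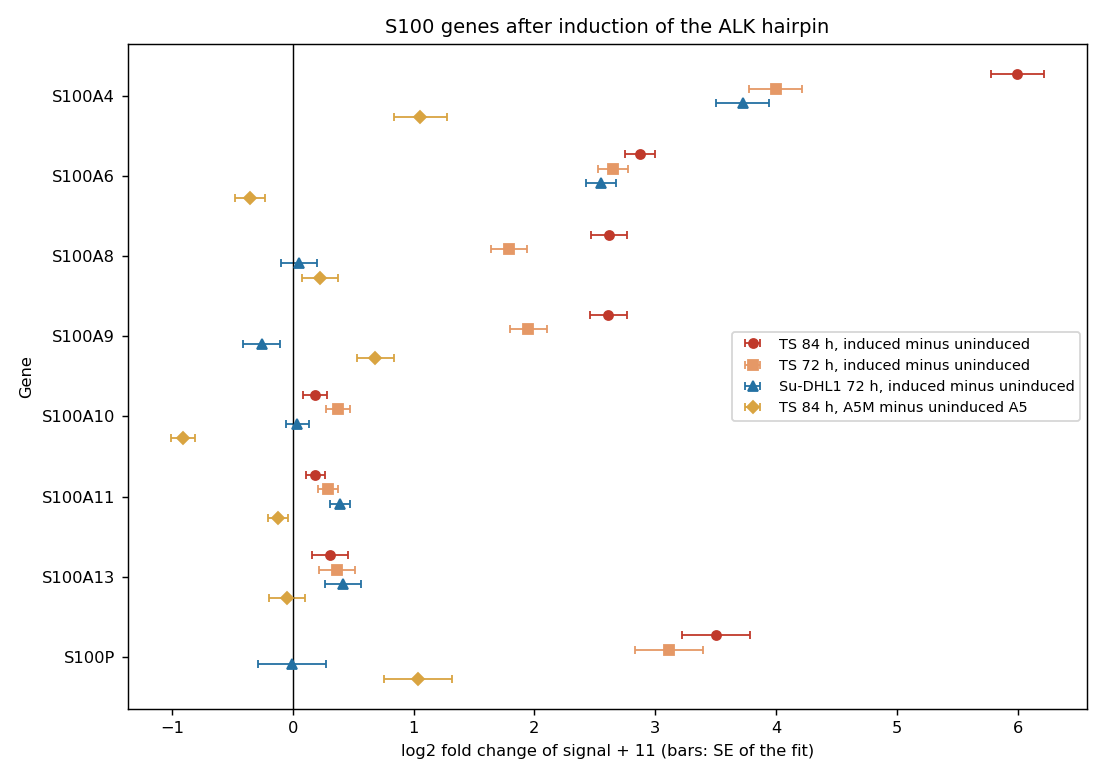
Log2 fold change of signal + 11 for the 8 genes in 4 hairpin comparisons; points are estimates of the linear model, bars its standard errors, 3 arrays per group. S100A4 and S100A6 lie to the right of 2 in all 3 ALK hairpin settings, whereas S100A8, S100A9 and S100P lie near 0 in Su-DHL1 (0.05, -0.26 and -0.005).

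Counted over the set, 6 of 8 genes were higher without overlap in induced TS cells at 84 h, where 24.8% of all genes were, and 8 of 8 at 72 h, where 28.5% were. In Su-DHL1 S100A4, S100A6 and S100A11 were higher and S100A9 was lower, where 23.6% and 16.2% of all genes were. Against A5M 8 of 8 were higher, where 26.7% of genes were; this comparison shares its induced arrays with the 84 h comparison. The median log2 fold change of the 8 genes was 2.62 at 84 h, 1.87 at 72 h and 0.22 in Su-DHL1, beside 0.06, 0.07 and 0.08 over all genes. Since the genes were chosen with these comparisons known, nothing is read from these shares. A5M against uninduced A5 gave 1 gene higher (S100A4) and 2 lower (S100A6 and S100A10), where 9.08% and 9.42% of all genes were.

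**Figure D3:**
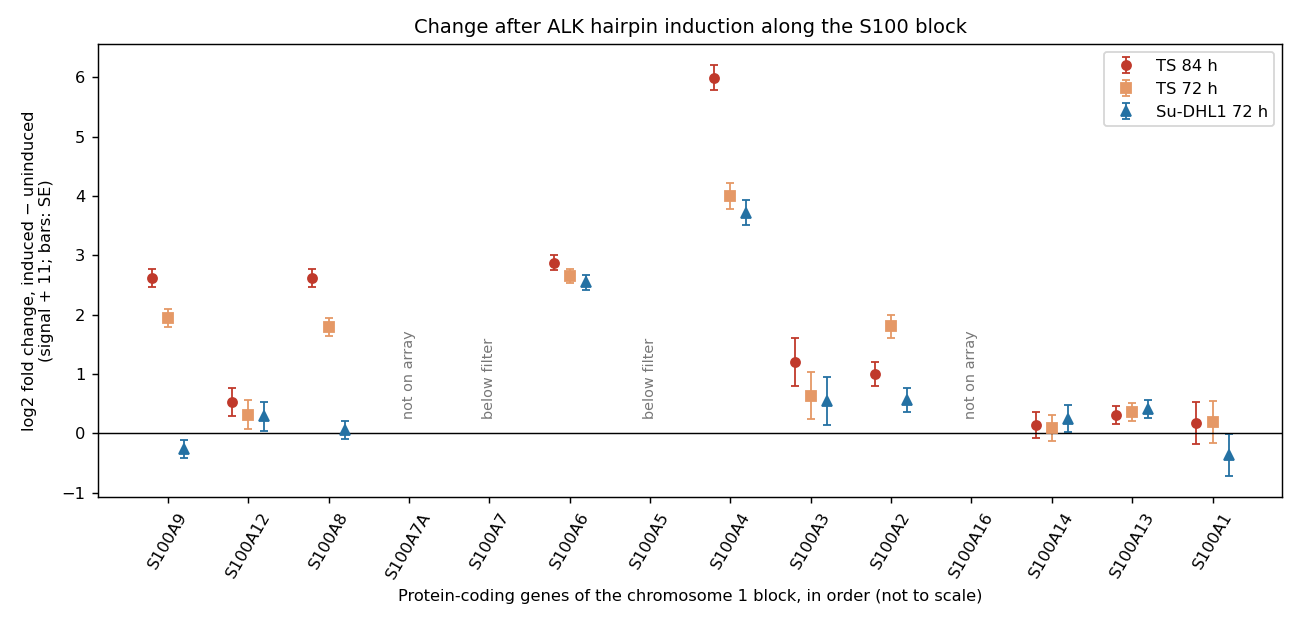
Log2 fold change of signal + 11 (induced minus uninduced, bars: SE, 3 arrays per group) along the 14 S100 genes of the chromosome 1 run, in gene order and not to scale. The values peak at S100A4 (6.00, 3.999 and 3.72) and S100A6, and lie below 1 in size for S100A14, S100A13 and S100A1.

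Neighbouring genes of the run differed in size of change. S100A6 and S100A4, separated by S100A5, which did not pass the filter on low signals, had the largest values. S100A3 and S100A2, the next genes of the run, gave averages over the 3 settings of 0.80 ± 0.23 and 1.12 ± 0.11, and S100A12, between S100A9 and S100A8, gave 0.38 ± 0.14. For S100A3 induced and uninduced groups overlapped in each setting, among signals near background. All its Su-DHL1 arrays were below the 40th percentile, as were 2 of 3 arrays in both uninduced TS groups and in induced TS cells at 72 h. S100A14, S100A13 and S100A1 at the far end gave 0.16 ± 0.13, 0.36 ± 0.09 and 0.001 ± 0.21. S100A2, an S100 protein known from epithelia, was higher without overlap in all 3 settings: its means were 113.1 ± 13.8 against 51.9 ± 14.3 at 84 h, 126.7 ± 2.6 against 29.3 ± 9.9 at 72 h and 133.4 ± 9.1 against 87.0 ± 9.3 in Su-DHL1 (SD, n = 3). At 72 h 2 of its 3 uninduced TS arrays were below the 40th percentile, which limits the size of that change. Of the 9 other S100 genes on the array, 5 passed the filter. Besides S100A2 in the 3 settings, S100A12 was higher without overlap at 84 h and none was lower. That made 2, 1 and 1 of 5 higher at 84 h, at 72 h and in Su-DHL1. Of all genes 24.8%, 28.5% and 23.6% were higher and 20.9%, 21.3% and 16.2% lower, so nothing is read from these counts.

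The inhibitor experiment asked what 6 h with an ALK inhibitor does in TS cells, and its arrays took no part in the hairpin comparisons. S100A4 was again the member with the largest change. Its signals were 22.5, 9.1 and 11.2 in U, 24.6, 11.4 and 14.8 with A1, 75.6, 83.1 and 98.8 with A2 and 130.1, 148.1 and 104.6 with A3. All 6 inhibitor arrays were above all 6 arrays of U and A1, which were below the 40th percentile of their array. S100A4 therefore passed the filter through A2 and A3 alone. It rose by 1.81 ± 0.25 on the log2 scale with A2 against A1 (limma, adjusted p = 3.14e-05) and by 2.33 ± 0.25 with A3 (adjusted p = 2.17e-06). Against U the values were 1.97 (adjusted p = 1.19e-05) and 2.48 (adjusted p = 9.6e-07). With no filter, with other added constants, and with the ACTB ratio as covariate S100A4 stayed called in all 4 of these comparisons. With controls this near background the size rests on the constant: against A1 it was 2.33 with A2 and 2.89 with A3 with 1 added, and 1.02 and 1.41 with 50 added. The highest adjusted p for A2 against A1, 0.0121, came with the ACTB ratio, for a change of 1.52.

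S100P rose with both inhibitors against U. Its signals were 27.8, 29.6 and 41.6 in U, 45.0, 34.3 and 47.4 with A1, 117.4, 69.2 and 89.7 with A2 and 64.2, 83.6 and 59.6 with A3. Here too every A2 and A3 array was above every U and A1 array. The rise was 1.22 ± 0.22 with A2 (limma, adjusted p = 0.000367) and 0.87 ± 0.22 with A3 (adjusted p = 0.00563) against U. Against A1 it was 0.94 ± 0.22 with A2 (adjusted p = 0.00337), whereas the value for A3, 0.59 ± 0.22, did not pass (adjusted p = 0.0523). With the ACTB ratio as covariate, the A2 value against A1 was 0.72 and no longer passed (adjusted p = 0.171). Both values against U still passed with it.

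S100A10 passed the test against A1 but not against U. Its signals were 4406.7, 4162.3 and 4552.8 in U, 3193.8, 3933.4 and 3540.6 with A1, 4470.2, 5178.8 and 3946.6 with A2 and 5591.0, 5154.0 and 5047.6 with A3. The A1 arrays were the lowest group and did not overlap any of the other 3. The change was 0.35 ± 0.12 with A2 (limma, adjusted p = 0.0313) and 0.57 ± 0.12 with A3 (adjusted p = 0.00121) against A1, and 0.04 ± 0.12 (adjusted p = 0.817) and 0.27 ± 0.12 (adjusted p = 0.0941) against U. A1 itself differed from U by -0.30 ± 0.12, which did not pass (adjusted p = 0.436). The A2 call against A1 was lost with no filter on low signals (adjusted p = 0.0639), with the ACTB ratio as covariate (adjusted p = 0.188), and without A1 replicate 1 or 3 or A2 replicate 1 or 2 (adjusted p = 0.129, 0.0734, 0.0702 and 0.163).

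S100A6 and S100A9 gave smaller values. S100A6, at 622.0, 881.1 and 1255.9 in U and 663.3, 765.7 and 793.5 with A1, stood at 900.6, 778.3 and 947.0 with A2 and 940.3, 1059.5 and 1058.3 with A3. The A3 arrays were above all A1 arrays, but the change of 0.46 ± 0.18 did not pass (limma, adjusted p = 0.0604), and the U arrays alone spanned more than the range of the other 9. The 95% interval for A3 against A1 was 0.08 to 0.83, and against U the values were -0.02 ± 0.18 with A2 (adjusted p = 0.952) and 0.20 ± 0.18 with A3 (adjusted p = 0.429). S100A9 rose with A2 against U by 0.60 ± 0.23 (adjusted p = 0.0477), a call lost in 11 of 14 alternative settings, among them without any one of the U or A2 arrays (adjusted p = 0.0544 to 0.196), and did not pass in A2 against A1 (0.34 ± 0.23, adjusted p = 0.28) A3 against A1 (0.23 ± 0.23, adjusted p = 0.479) or A3 against U (0.49 ± 0.23, adjusted p = 0.106). Without U replicate 3, S100A6 in A3 against U passed (0.45, adjusted p = 0.03), and without A3 replicate 1 so did S100A9 (adjusted p = 0.00806). S100A8 did not pass the filter, at 22.9 to 40.7 on all 12 arrays.

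S100A11 fell and S100A13 rose in a single comparison each. S100A11 was lower with A2 than in U by 0.57 ± 0.18 (-0.57, limma, adjusted p = 0.019), at 1325.2, 2098.8 and 1346.5 against 2004.2, 2316.2 and 2643.2, and the groups overlapped through A2 replicate 2. This call was lost without U replicate 3, A2 replicate 1 or A2 replicate 3 (adjusted p = 0.0817, 0.0928 and 0.0882). Without A2 replicate 2, S100A11 was called lower against A1 as well (adjusted p = 0.0281), and without U replicate 1 or A3 replicate 2 it was called lower with A3 against U (adjusted p = 0.0407 and 0.0155, against 0.0572 with all arrays). S100A13 was higher with A3 than in U by 0.43 ± 0.15 (adjusted p = 0.0355), at 174.7, 146.4 and 182.6 against 97.3, 130.6 and 139.6. That call was lost with no filter on low signals (limma, adjusted p = 0.0604) and with only the compared groups in the fit (adjusted p = 0.0612). It was also lost without U replicate 1, A3 replicate 1 or A3 replicate 3 (adjusted p = 0.176, 0.1 and 0.121), and 213481_at gave -0.38 ± 0.24 in the same comparison.

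**Figure D4:**
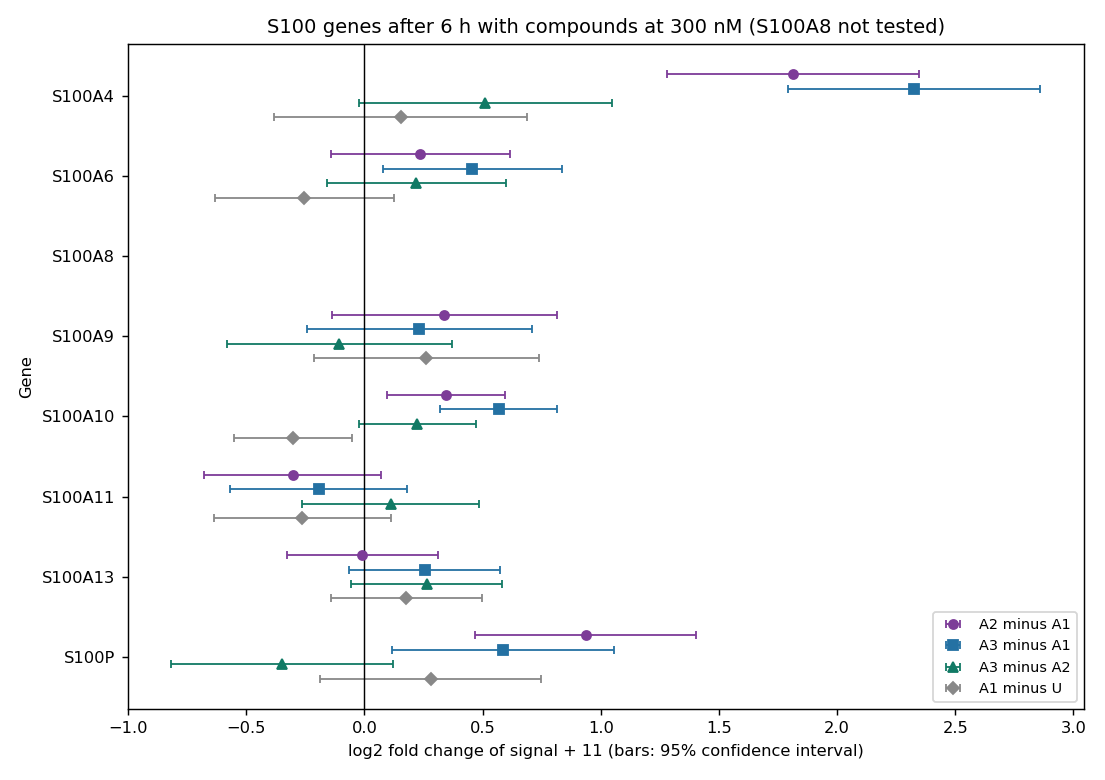
Log2 fold change of signal + 11 for 7 of the 8 genes in 4 comparisons of the 6 h experiment (3 arrays per group); points are estimates and bars 95% confidence intervals of the linear model. S100A4 lies at 1.81 and 2.33 with A2 and A3 against A1, and all intervals for A3 minus A2 include 0.

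Of the 7 members tested, A2 against A1 called 3 higher, where 19.1% of all genes were called higher, and A3 against A1 called 2, where 18.5% were. The mean of A2 and A3 against A1 called 3 higher (S100A4, S100A10 and S100P), where 21.9% of genes were called higher and 16.3% lower. Against U, A2 called 3 higher and 1 lower, where 19.7% and 15.4% of genes were, and A3 called 3 higher, where 18.8% were. These comparisons share their control arrays. With the ACTB ratio as covariate the count for A2 against A1 and for the mean was 1, S100A4, each time.

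A1 against U called none of the 7 members by limma, with 1 (S100A10) at an unadjusted p under 0.05, where 0.0233% of genes were called higher and 0.0116% lower. A2 and A3, compared at the same dose and time, gave no call either, and none of the 7 had an unadjusted p under 0.05, where 0.0582% of genes were called higher and 0.0931% lower with A3. The difference of A3 from A2 was 0.51 for S100A4 (95% interval -0.02 to 1.05, adjusted p = 0.585), although the 3 A3 arrays were above the 3 A2 arrays. For S100P it was -0.35 (-0.82 to 0.12, adjusted p = 0.703), and for S100A10 0.22 (-0.03 to 0.47, adjusted p = 0.614). These intervals leave room for differences of up to 1.05 on the log2 scale, so they do not show that A2 and A3 act alike.

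The genes whose products S100 proteins bind were taken as a list of 19, of which 17 were on the array. AHNAK, a giant scaffold held by S100A10 and annexin A2, had the largest average over the 3 hairpin settings (2.52 ± 0.07), followed by MYH9, the nonmuscle myosin heavy chain bound by S100A4 (1.90 ± 0.07), and ANXA6 (1.18 ± 0.21). In TS cells 10 of 17 were higher without overlap and 2 lower at 84 h, where 24.8% and 20.9% of all genes were, and 9 were higher and 3 lower at 72 h, where 28.5% and 21.3% were. In Su-DHL1 7 were higher and 1 lower, where 23.6% and 16.2% of all genes were. CACYBP, the S100A6 partner, chosen after its values were seen, was lower without overlap in all 3 settings (-0.74, -0.52 and -0.37, ± 0.10 each).

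With the mean of the inhibitors against A1, 7 of 15 partner genes tested rose and 1 fell, where 21.9% and 16.3% of all genes did, and the median was 0.32 beside 0.03 over all genes. AHNAK rose by 1.65 ± 0.13 (limma, adjusted p = 4.36e-08), IQGAP1, a cytoskeletal scaffold, by 1.04 ± 0.15 (adjusted p = 2.98e-05), and ANXA2, the S100A10 partner, by 0.63 ± 0.10 (adjusted p = 5.7e-05). MYH9 rose by 0.58 ± 0.13 (adjusted p = 0.00237), ANXA1 by 0.48 ± 0.09 (adjusted p = 0.00061) and EZR, the membrane linker ezrin, by 0.45 ± 0.10 (adjusted p = 0.00151). AGER, the receptor for released S100 proteins, rose by 0.68 ± 0.22 (adjusted p = 0.02) and ANXA11 fell by 0.38 ± 0.14 (adjusted p = 0.0366). TLR4 and ANXA6 did not pass the filter in this experiment. Among the other S100 genes, S100A2 rose by 0.50 ± 0.15 (adjusted p = 0.016), 1 of 3 tested.

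Against U fewer partner genes passed. With A2 4 of 15 rose, where 19.7% of all genes did, and with A3 4 rose and 1 fell, where 18.8% and 14.9% did; the medians were 0.38 and 0.10. AHNAK (1.61 and 1.54), IQGAP1 (0.91 and 0.98), ANXA2 (0.41 and 0.56) and EZR (0.52 and 0.72) rose with both A2 and A3 by limma, with adjusted p-values of at most 0.00765. ANXA11 fell with A3 (-0.49, adjusted p = 0.0216). MYH9 (0.39, adjusted p = 0.0626, and 0.14, adjusted p = 0.532), ANXA1 (-0.03, adjusted p = 0.869, and 0.10, adjusted p = 0.53) and AGER (0.51, adjusted p = 0.132, and 0.53, adjusted p = 0.117) did not pass against U. For ANXA1 the value of A1 against U was -0.45 ± 0.11 (adjusted p = 0.164). S100A2 rose with A2 (0.49, adjusted p = 0.0431) and not with A3 (0.37, adjusted p = 0.123).

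Other genes of the EF-hand fold, to which S100 proteins belong, were also measured. Of 20 listed, 17 were on the array and 14 passed the filter. CALML4, a calmodulin-like gene, was lower in all 3 hairpin settings (average -2.76 ± 0.15), and the calpain subunits CAPN2 (1.15 ± 0.07) and CAPNS1 (0.84 ± 0.07) were higher. In the hairpin settings 8, 9 and 5 of 14 were higher without overlap, where 24.8%, 28.5% and 23.6% of all genes were, and 2, 1 and 1 lower, where 20.9%, 21.3% and 16.2% were. With the mean of the inhibitors against A1 4 rose and 2 fell, shares of 14 that lie near those of all genes (21.9% and 16.3%), and the median was -0.11 beside 0.03 over all genes. In that mean against A1, CAPN1 rose by 1.04 ± 0.13 (limma, adjusted p = 7.46e-06), CAPNS1 by 0.75 ± 0.14 (adjusted p = 0.000296), CHP1 by 0.67 ± 0.14 (adjusted p = 0.000763) and CAPN2 by 0.34 ± 0.10 (adjusted p = 0.0126). CALML4 changed by -0.78 ± 0.20 (adjusted p = 0.00433) and EFHD2 by -0.66 ± 0.15 (adjusted p = 0.00182), also against A1. Taken singly, A2 against A1 called 4 of 14 higher and 4 lower, where 19.1% and 14.3% of all genes were. A3 against A1 called 4 higher and 1 lower, where 18.5% and 14.2% were, so CALML4 and EFHD2 were not both called lower with A3 against A1. Against U 4 of 14 rose and 2 fell with A2, where 19.7% and 15.4% of all genes did. As many did with A3, where 18.8% and 14.9% of all genes did. CAPN1, CAPNS1, CHP1 and CAPN2 rose, and CALML4 and EFHD2 fell. These shares of 14 too lie near those of all genes. RCN1 and SDF4, calcium-binding proteins of the secretory pathway, were called lower with A2 alone (-0.37, adjusted p = 0.0328, and -0.39, adjusted p = 0.0468, against A1).

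Ordered by mean signal over the 11 groups, S100A4 ran from induced TS cells at 84 h (1535 ± 145.9) through 72 h (651.6 ± 72.8) and induced Su-DHL1 (308.8 ± 7.7) to A3 (127.6 ± 21.9), A2 (85.8 ± 11.8), A5M (39.5 ± 8.6) and uninduced TS at 72 h (30.3 ± 2.6), all means with SD of 3 arrays. No neighbours in this order overlapped down to that group, and A1, uninduced Su-DHL1, U and uninduced TS at 84 h overlapped one another in turn (13.9 to 16.9). S100P was highest in induced TS cells, and uninduced and induced Su-DHL1 lay among the control groups. S100A9 and S100A8 were highest in induced TS cells, then in TS cells of the hairpin experiment without active A5, then in Su-DHL1, and lowest in the 6 h groups.

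Over the 11 group means on the log2 scale, the genes most like S100A4 were CCDC69 (Pearson r = 0.979), PIK3R3 (0.975) and MSRB2 (0.975), out of 8478 genes kept in both experiments. For S100A9 they were ATP5F1E (0.982), IDH3G (0.955) and TM2D1 (0.944), and for S100P HLA-DMA (0.952), ERP44 (0.948) and IFNAR2 (0.946). CCDC69, for example, stood at 203.1 ± 22.1 against 34.5 ± 12.6 in TS cells at 84 h. Within the set the closest pairs were S100A8 with S100A9 (r = 0.982) and S100A4 with S100A6 (0.941), while S100A4 with S100A8 gave 0.511. These are descriptions over 11 points that share lines, times and experiments.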

How the data were processed

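The deposited values are MAS5 signals, a linear intensity for each probe set; that the authors used MAS5 is known per the submitters' processing notes, and no version or setting was found in the sources used here. MAS5 scales every array to the same average, so a change in total RNA per cell would not show. Control probe sets (68) were dropped. Probe sets took their genes from the platform annotation, and gene order and promoter sequences came from RefSeq (GRCh38.p14).

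Each signal was increased by 11 (close to the 20th percentile of the table, 10.8) and put on the log2 scale. To pass the filter, a probe set needed 3 or more arrays of its experiment at or above the 40th percentile of the array, a signal of 33.3 to 44.1. Each gene was represented by its brightest such probe set. This gave 9101 genes on the 21 hairpin arrays and 8594 on the 12 inhibitor arrays. Group means were fitted separately for the experiments with limma 3.58.1 (R 4.3.3; lmFit and eBayes with trend). Figures were made in Python 3.11.15 with matplotlib 3.10.9. In the inhibitor experiment, two-sided p-values were Benjamini-Hochberg adjusted over all genes in each of 7 comparisons, and adjusted values under 0.05 were calls. For the hairpin experiment only standard errors and the overlap of groups are given. The number of arrays limits the precision. The fit was tested on simulated data.

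The members and lists were chosen with earlier results of these data known. All 8 members are named, and from the lists of other S100 genes, binding partners and other EF-hand genes the 3 with the largest average hairpin change and those called against A1. Marker lists covered ALCL and T cells, myeloid, epithelial, B and stromal cells. Genes named outside this rule were chosen after their values were seen.

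Alternatives were an added constant of 1 or 50, quantile normalization, no filter, a replicate block, every probe set tested, fits of the compared groups only, each array left out and, chosen after seeing the data, the ACTB ratio as covariate. Deviations of same-numbered replicates correlated at -0.194 to 0.103 between groups, so the numbers were not taken as pairs.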

Additional observations from a re-analysis of the deposited data

Results flagged for a closer look

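2 results of the hairpin experiment went opposite ways in the lines at 72 h, with every induced array above every uninduced array in TS cells and below it in Su-DHL1. For S100A9 (203535_at) the response in Su-DHL1 minus that in TS was -2.21 ± 0.21 on the log2 scale. For the second S100A8 probe set (214370_at) it was -2.08 ± 0.36, with the Su-DHL1 arrays all under the 40th percentile of their array, and the main S100A8 probe set gave overlapping groups in Su-DHL1. These differences were not tested, since the genes were chosen with the difference between lines known. Groups of 3 arrays are too small for a check of single arrays that stand apart.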

How the results depend on the processing

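Counts of members without overlap kept within 1.5 times of their value under all alternatives, except for A5M against uninduced A5, where 2 in place of 1 were higher with quantile normalization, and 1 to 3 when single arrays were left out, and for uninduced Su-DHL1 against TS, where leaving out an array gave 0 to 2 higher. With the ACTB ratio as covariate, 1 member in place of 3 was called for A2 against A1 and for the mean of A2 and A3 against A1. For A3 against U 1 member (S100A11) in place of 0 was called lower with that covariate, with the replicate block and with only the compared groups in the fit, and 0 to 1 with an array left out. Leaving out arrays gave 0 to 1 called lower for A2 against U, A2 against A1 and the mean. Signs turned only for values that were not called: S100A6 in A2 against U (0.0045, quantile normalization), and, with the ACTB ratio, S100A9 against A1 (-0.042 with A2, -0.14 with A3, -0.091 for the mean) and S100A13 in A2 against A1 (0.23). With an array left out, the Su-DHL1 hairpin values ranged from -0.066 to 0.18 for S100A8, -0.024 to 0.12 for S100A10 and -0.16 to 0.18 for S100P; the inhibitor values from -0.047 to 0.45 for S100A6 in A3 against U, -0.27 to 0.23 for S100A6 in A2 against U, -0.057 to 0.14 for S100A10 in A2 against U, -0.035 to 0.38 for S100A4 in A1 against U, -0.086 to 0.042 for S100A13 in A2 against A1, and for A3 against A2 from -0.27 to 0.18 for S100A9 and -0.054 to 0.33 for S100A11. The replicate block moved S100A6 in A3 against A1 past the threshold (adjusted p = 0.0306; 0.0114 with only the compared groups) and S100A9 in A2 against U off it (adjusted p = 0.0511). Over all genes, the ACTB ratio as covariate left 1354 calls of 2871 for A2 against A1, 1452 of 2808 for A3 against A1 and 1543 of 3286 for the mean, and over all alternatives the 3 calls for A1 against U ranged from 0 to 6 and the 13 for A3 against A2 from 0 to 17. In TS cells at 84 h and 72 h, the hairpin values with the ACTB ratio as covariate were larger for S100A6 (3.07 and 2.85) and S100A8 (2.98 and 2.15). For S100P they were smaller (2.87 and 2.49), and those of the other members moved by less than the residual SD of the fit. The causes were not tested. Control signals below the 40th percentile limit the S100A4 folds, and in part those of S100P.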

Other observations

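The level of S100A8 and S100A9 in TS cells differed between the experiments. S100A8 (202917_s_at) lay between 892.8 and 1481.5 on the 6 uninduced A5 arrays and between 22.9 and 40.7 on the 12 arrays of the 6 h experiment, and S100A9 between 494.2 and 754.7 against 80.2 and 176.4. S100A11 was also lower at 6 h (1325.2 to 2643.2, against 3164.1 to 4047.0), while S100A6 overlapped. The labels of the 6 h samples name no hairpin, the cells were harvested at another time, and on 9 of the 12 arrays they had received A1, A2 or A3. These differences cannot be told apart. No fold or test is given across them.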
